A study of Mus musculus with 14 samples.

Results

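Transcripts of 9 chemokine genes, Ccl2, Ccl3, Ccl4, Ccl5, Ccl6, Ccl9, Ccl12, Cxcl10 and Cxcl16, were examined in plaque-bearing mouse brain. The genes were selected by symbol, and all 9 were present among the 43346 genes counted. RNA-seq was performed on a cross-section of frozen brain holding hippocampus and cortex from 14 female mice aged 23 months. NTG mice (n = 4, mice 7 to 10) were non-transgenic littermates. APP/PS1 mice (n = 5, mice 16 to 20) carried human APP with the K670N and M671L mutations together with human PS1 with the M146L mutation, on the C57BL/6;SJL background that NTG mice share. APP/PS1 + CP2 mice (n = 5, mice 21 to 25) were the same genotype and received CP2, a tricyclic pyrone that partially inhibits mitochondrial complex I, at 25 mg/kg/day in drinking water with 0.1% PEG from 9 months of age for 14 months. The other groups are called non-treated in their labels and drank water with 0.1% PEG as vehicle. The promoters that drive the transgenes are not given in the sources used here, and non-transgenic mice given CP2 were not analysed here.

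Chemokines are small secreted proteins that guide leukocytes along concentration gradients by binding G protein-coupled receptors. In brain with amyloid plaques, microglia around the deposits and, to a lesser extent, astrocytes are known sources. Ccl2 and Ccl12 bind Ccr2 and attract monocytes, Ccl3, Ccl4 and Ccl5 attract T cells, monocytes and other leukocytes, Ccl6 and Ccl9 are myeloid products that bind Ccr1, Cxcl10 is an interferon-induced ligand of Cxcr3 on activated T cells, and Cxcl16 is made as a membrane protein whose receptor is Cxcr6.

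APP/PS1 brain held more transcript of most of these chemokines than NTG brain, and the group means after CP2 lay between those of NTG and APP/PS1 for all 9. Cxcl10 was 10.6-fold and Ccl3 10.2-fold higher in APP/PS1 than in NTG mice, Ccl4 7.68-fold, Ccl12 6.82-fold, Ccl5 3.88-fold, Ccl6 3.42-fold and Cxcl16 3.12-fold. Ccl2 was 2.96-fold and Ccl9 1.46-fold higher, and neither passed the adjusted threshold. When APP/PS1 mice with and without CP2 were compared, no chemokine passed the adjusted threshold in edgeR. Ccl5 and Ccl2 were lower in every treated mouse than in every vehicle-treated one, where 0.471% of genes were. For Ccl2 the gap between the groups was no wider than a single count.

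A difference is called here when the adjusted p of edgeR's quasi-likelihood test is under 0.05. Values are raw counts or CPM, the count relative to the TMM-scaled size of the library. Total counts per mouse ranged from 70548781 to 106235625, so that a single count was worth 0.00918 to 0.0149 CPM. Each comparison was fitted on its pair of groups, first over genes with a CPM above 1 in every mouse of at least 1 group, which Ccl2, Ccl5 and Ccl12 did not reach, and then over all genes with a count. APP/PS1 mouse 16 stood apart from the other mice. Its summed CPM over 9 striatal genes was 2532, against 201 to 386 in the other 13 mice, and its value was the lowest of the 5 APP/PS1 mice for 8 of the 9 chemokines (all but Ccl4). Fold changes without this mouse are given for each chemokine in APP/PS1 against NTG mice, and as a range with some of the values for the comparison of CP2 with vehicle. Means are given ± SD over the mice of a group.

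Cxcl16 and the 7 CC chemokines lie on chromosome 11 and Cxcl10 on chromosome 5 (mm10). Ccl2 (chr11:82035571-82037453, ENSMUSG00000035385) and Ccl12 (chr11:82101845-82103400, ENSMUSG00000035352), on the plus strand, are 64.4 kb apart with Ccl7 and Ccl11 between them. A further stretch holds Ccl5 (chr11:83525778-83530518, ENSMUSG00000035042), Ccl9 (chr11:83572919-83578636, ENSMUSG00000019122), Ccl6 (chr11:83587882-83593087, ENSMUSG00000018927) and Ccl3 (chr11:83647844-83649355, ENSMUSG00000000982) on the minus strand, followed by Ccl4 (chr11:83662584-83664683, ENSMUSG00000018930) on the plus strand. The gaps along it are 42.4, 9.25, 54.8 and 13.2 kb. Cxcl16 (chr11:70453983-70459984, ENSMUSG00000018920) and Cxcl10 (chr5:92346638-92348889, ENSMUSG00000034855) are on the minus strand. All 9 are annotated as protein-coding.

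Promoter sequences in the RefSeq table (GRCm38.p6) were matched for 5 of the 9 genes. Those of Cxcl10 and Ccl3, which had the largest differences between APP/PS1 and NTG mice, and of Ccl9, which had the smallest, are shown as the 250 bases before the RefSeq start of transcription, 5′ to 3′ on the gene's strand. For Ccl3 the RefSeq start lies upstream of the gene coordinates given above, and motif positions are counted from the RefSeq start. Capitals mark an ISRE core (GAAANNGAA on either strand, the element bound by interferon-activated factors), an NF-kB motif on either strand or a TATA box (TATAAA).
Cxcl10 (chr5:92348890-92349139, minus strand): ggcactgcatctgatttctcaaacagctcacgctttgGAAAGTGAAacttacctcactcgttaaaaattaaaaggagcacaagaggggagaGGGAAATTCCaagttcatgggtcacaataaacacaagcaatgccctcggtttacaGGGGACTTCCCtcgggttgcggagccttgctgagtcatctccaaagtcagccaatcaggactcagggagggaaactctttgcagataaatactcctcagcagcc
Ccl3 (chr11:83649379-83649628, minus strand): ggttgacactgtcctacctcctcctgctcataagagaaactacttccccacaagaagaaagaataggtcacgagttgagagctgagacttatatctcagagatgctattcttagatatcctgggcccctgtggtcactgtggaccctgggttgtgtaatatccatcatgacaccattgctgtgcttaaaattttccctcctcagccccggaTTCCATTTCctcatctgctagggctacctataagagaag
Ccl9 (chr11:83578637-83578886, minus strand): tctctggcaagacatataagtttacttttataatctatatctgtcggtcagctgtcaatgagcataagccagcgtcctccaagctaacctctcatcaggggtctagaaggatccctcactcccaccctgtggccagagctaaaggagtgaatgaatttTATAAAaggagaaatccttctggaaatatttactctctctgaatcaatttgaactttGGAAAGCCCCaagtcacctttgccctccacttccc
In the Cxcl10 window the ISRE core lies at -213 to -205 (counted from the start of transcription), and NF-kB motifs lie at -159 to -150 and, as an overlapping pair, at -104 to -94. The Ccl3 window holds an ISRE core read on the opposite strand at -39 to -31 and no NF-kB motif. The Ccl9 window holds an NF-kB motif on the opposite strand at -35 to -26 and a TATAAA at -92 to -87. Among 32851 promoters of this length, 7.13% hold the ISRE core, 7.25% the NF-kB motif and 7.59% TATAAA. Of the other windows, Ccl12 holds TATAAA at -31 to -26 and Ccl6 none of the motifs. AP-1 motifs (TGANTCA), not capitalised here, were found for Cxcl10 and Ccl9 and in 6.75% of all promoters. These matches describe letters only.

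Per length of transcript, on the authors' RPKM scale, the order of the chemokines differed between NTG and APP/PS1 brain. In NTG mice the mean level was highest for Ccl6 (0.948 RPKM), Cxcl16 (0.644) and Ccl3 (0.417) and lowest for Ccl2 (0.107), and the ranges of all neighbours in this order overlapped. In APP/PS1 mice Ccl3 was at the top with 4.49 RPKM, followed by Ccl6 (3.36), Ccl12 (2.93), Cxcl10 (2.71), Ccl4 (2.41) and Cxcl16 (2.09). Ccl5 (0.768), Ccl9 (0.494) and Ccl2 (0.336) came last, and the only neighbours whose ranges did not overlap were Cxcl16 and Ccl5. In CP2-treated APP/PS1 mice Ccl3 (3.56 RPKM), Ccl6 (2.56) and Ccl12 (1.94) were again at the top, and Ccl9 (0.389), Ccl5 (0.301) and Ccl2 (0.145) at the bottom. Breaks without overlap lay there between Cxcl16 and Ccl9 and between Ccl5 and Ccl2. All 9 were low-level transcripts, with at most 5.78 RPKM (Ccl3, APP/PS1) in any mouse.

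**Figure D1:**
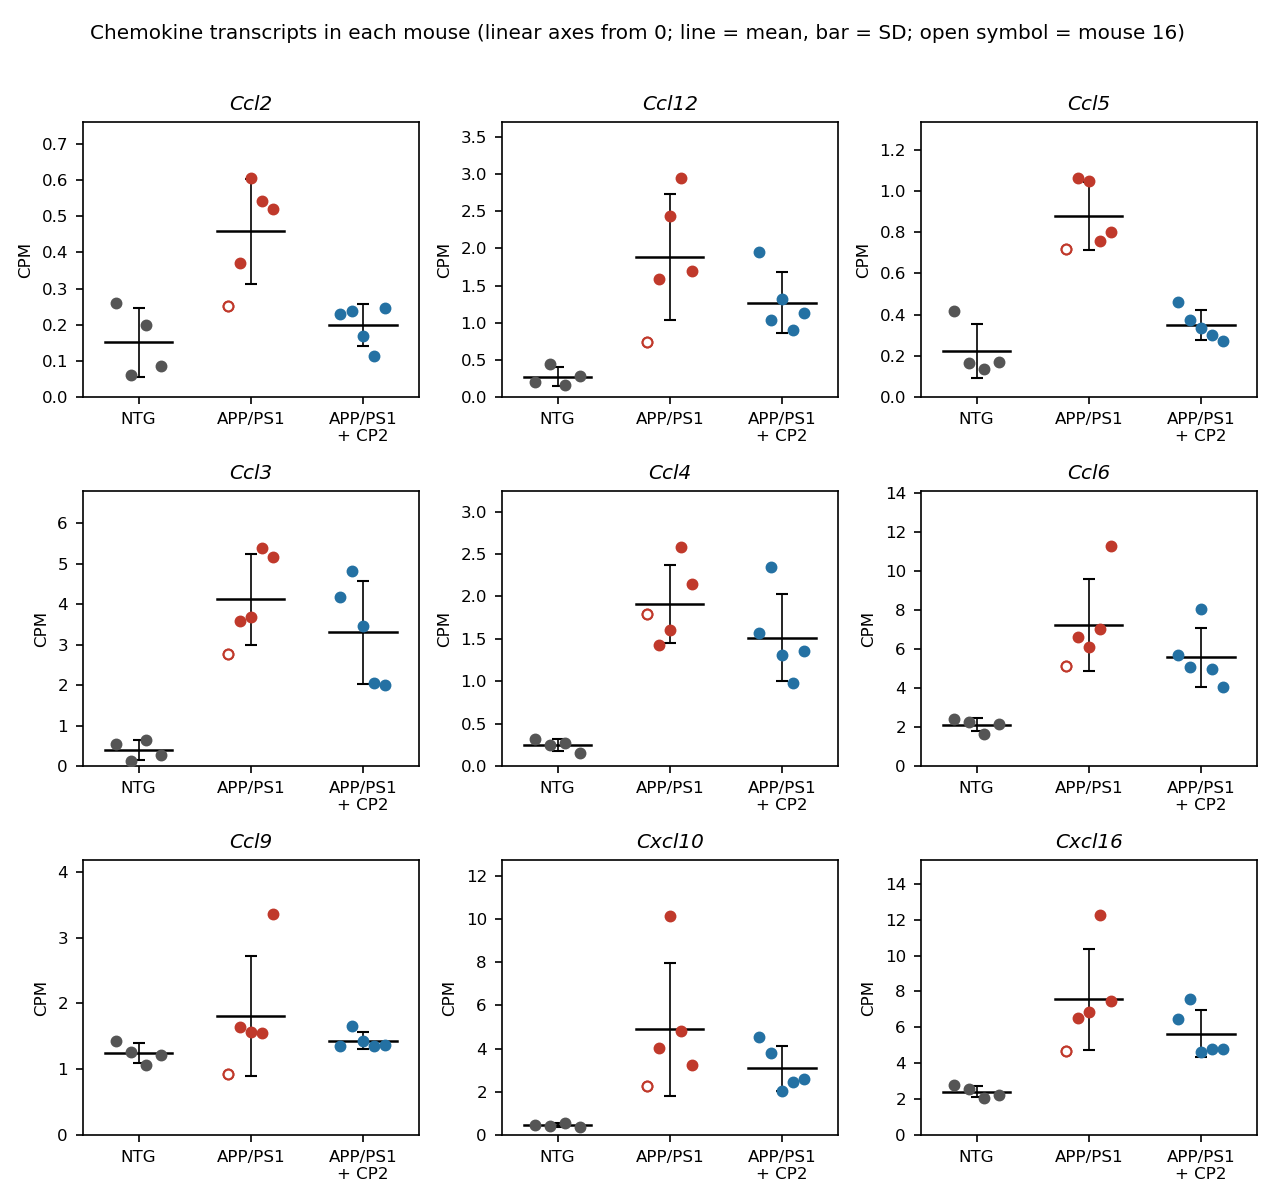
CPM (linear axes starting at 0) of each chemokine in the 4 NTG, 5 APP/PS1 and 5 APP/PS1 + CP2 mice, each point being 1 mouse, with the mean as a line and the SD as a bar; the open symbol is APP/PS1 mouse 16. NTG and APP/PS1 points do not overlap except for Ccl2 and Ccl9, and APP/PS1 and APP/PS1 + CP2 points are apart only for Ccl2 and Ccl5.

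The first question was how the chemokines differ between APP/PS1 and NTG mice. With the filter, 5 of the 6 chemokines tested were called higher (Ccl3, Ccl4, Ccl6, Cxcl10 and Cxcl16), where 4.34% of the 16417 genes tested were. Ccl3, Ccl4 and Cxcl10 reached at most 0.651, 0.317 and 0.576 CPM in NTG mice. They passed the filter only through the APP/PS1 group, where they are high, so this count is partly set by the filter. Without a filter, 7 of 9 were called higher, where 2.31% of 33522 genes were, and 7 of 9 did not overlap between the groups with APP/PS1 above NTG, where 3.93% of genes did. Without mouse 16, 6 were called with the filter, as a further chemokine then passed it while Ccl9 was still not called, and 8 without. All 9 had a positive log2 fold change. The median over the 9 was 1.955 on the log2 scale without a filter, against -0.01 over all genes. In bulk tissue, more cells of a type and more RNA per cell cannot be told apart.

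Ccl2, the main monocyte attractant of the family, was close to the limit of counting in NTG brain. Its counts were 23, 4, 16 and 8 in NTG mice 7 to 10, 22, 33, 66, 43 and 47 in APP/PS1 mice 16 to 20, and 20, 21, 13, 12 and 20 in CP2-treated mice 21 to 25. Mice 17 to 20 were above every NTG mouse, and mouse 16 lay just under NTG mouse 7 on the CPM scale (0.252 against 0.261). NTG mice averaged 0.151 ± 0.0952 CPM (SD, n = 4) and APP/PS1 mice 0.458 ± 0.144 CPM (SD, n = 5), a log2 fold change of 1.57 (SE 0.42) that missed the adjusted threshold in edgeR without a filter (adjusted p = 0.0837). The call depended on the fit and on single mice. The adjusted p was 0.0261 without mouse 16 (log2 fold change 1.73), 0.0483 without NTG mouse 7 (1.95), 0.0369 with all 3 groups in one edgeR fit and 0.00891 in DESeq2, and over the mice left out in turn it ranged from 0.0261 to 0.229.

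Ccl12, the other Ccr2 ligand, differed by more. Its counts were 18, 30, 13 and 27 in NTG mice and 65, 142, 266, 234 and 153 in APP/PS1 mice, and 169, 91, 102, 96 and 91 in CP2-treated mice. The APP/PS1 and NTG groups did not overlap, mouse 16 being lowest among the former. From 0.275 ± 0.125 CPM in NTG to 1.88 ± 0.846 CPM in APP/PS1 mice, the log2 fold change was 2.77 (SE 0.41, adjusted p = 0.00204 without a filter), and 2.99 without mouse 16.

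Ccl3 and Ccl4, neighbouring genes of similar leukocyte attractants, were scarce in NTG brain, with 8 to 52 counts of Ccl3 and 14 to 28 counts of Ccl4 per mouse. Ccl3 measured 0.544, 0.119, 0.651 and 0.276 CPM in NTG mice and 2.77, 3.59, 3.69, 5.40 and 5.18 CPM in APP/PS1 mice. The lowest APP/PS1 mouse was above the highest NTG mouse by a wide margin. The log2 fold change was 3.35 (SE 0.40, adjusted p = 0.00103) and stayed between 3.08 and 3.68 when each mouse was left out (3.46 without mouse 16). Ccl4 measured 0.317, 0.253, 0.275 and 0.149 CPM in NTG mice and 1.80, 1.43, 1.60, 2.58 and 2.15 CPM in APP/PS1 mice. Groups were again separate, and Ccl4 had the smallest standard error of the large differences, with a log2 fold change of 2.94 (SE 0.26, adjusted p = 0.000207) and 2.96 without mouse 16.

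Ccl5, a ligand of Ccr1 typical of activated T cells, had 37, 11, 11 and 16 counts in NTG mice and 63, 95, 114, 60 and 72 counts in APP/PS1 mice. NTG mouse 7 was well above the other NTG mice and still below every APP/PS1 mouse. The means were 0.223 ± 0.132 and 0.877 ± 0.165 CPM, with a log2 fold change of 1.96 (SE 0.33, adjusted p = 0.00552 without a filter). Without NTG mouse 7 the log2 fold change was 2.45, and without mouse 16 it was 2.03.

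Ccl6 and Ccl9, adjacent genes for related Ccr1 ligands, gave different calls. Ccl6 measured 2.39, 2.26, 1.64 and 2.18 CPM in NTG mice and 5.16, 6.61, 6.11, 7.04 and 11.3 CPM in APP/PS1 mice. All APP/PS1 mice exceeded all NTG mice, with a log2 fold change of 1.77 (SE 0.23, adjusted p = 0.00146) and 1.87 without mouse 16. Ccl9 measured 1.43, 1.26, 1.06 and 1.21 CPM in NTG mice and 0.926, 1.64, 1.57, 1.55 and 3.36 CPM in APP/PS1 mice. Mouse 16 was below all NTG mice and mouse 20 far above the rest, so that the groups overlapped. Its log2 fold change was 0.54 (SE 0.32, adjusted p = 0.409), 0.20 without mouse 20 and 0.71 without mouse 16. Whether Ccl6 and Ccl9 differ from each other in their response was not tested. Of the 50-base windows in Ccl9 transcripts, 1.97% also occur in other genes, against 0% for the other 8 chemokines.

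Cxcl10 showed the widest spread among APP/PS1 mice. It measured 0.465, 0.431, 0.576 and 0.372 CPM in NTG mice and 2.26, 4.03, 10.1, 4.82 and 3.22 CPM in APP/PS1 mice. Mouse 18 was more than 2 times as high as any other mouse, and the lowest APP/PS1 mouse was above all NTG mice. The coefficient of variation was 62.8% in APP/PS1, 18.6% in NTG and 33.9% in CP2-treated mice. The log2 fold change was 3.41 (SE 0.45, adjusted p = 0.00155), 2.96 without mouse 18 and 3.59 without mouse 16. Cxcl10 shares 133 of its 2252 exon bases in GENCODE (5.91%) with Art3 on the opposite strand, and reads there could be counted for both genes. Art3 had means of 1.97 CPM in NTG and 2.53 CPM in APP/PS1 mice.

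Cxcl16 measured 2.79, 2.59, 2.07 and 2.253 CPM in NTG mice and 4.69, 6.53, 6.87, 12.3 and 7.48 CPM in APP/PS1 mice. All APP/PS1 mice were above all NTG mice, and mouse 19 was the highest. The log2 fold change was 1.64 (SE 0.25, adjusted p = 0.00373), 1.40 without mouse 19 and 1.77 without mouse 16. Of its 3021 exon bases, 552 (18.3%) lie in Zmynd15 on the opposite strand. Zmynd15 averaged 0.965 CPM (NTG), 2.75 CPM (APP/PS1) and 2.224 CPM (with CP2), and without strand the reads in the shared bases cannot be told apart.

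Exact two-sided permutation tests of mean log2 CPM gave 0.0159, the smallest p that 126 groupings allow, for the 7 chemokines without overlap. Lack of overlap fixes this p, so it adds no further evidence for those chemokines. The same exact test gave 0.0317 for Ccl2 and 0.254 for Ccl9.

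**Figure D2:**
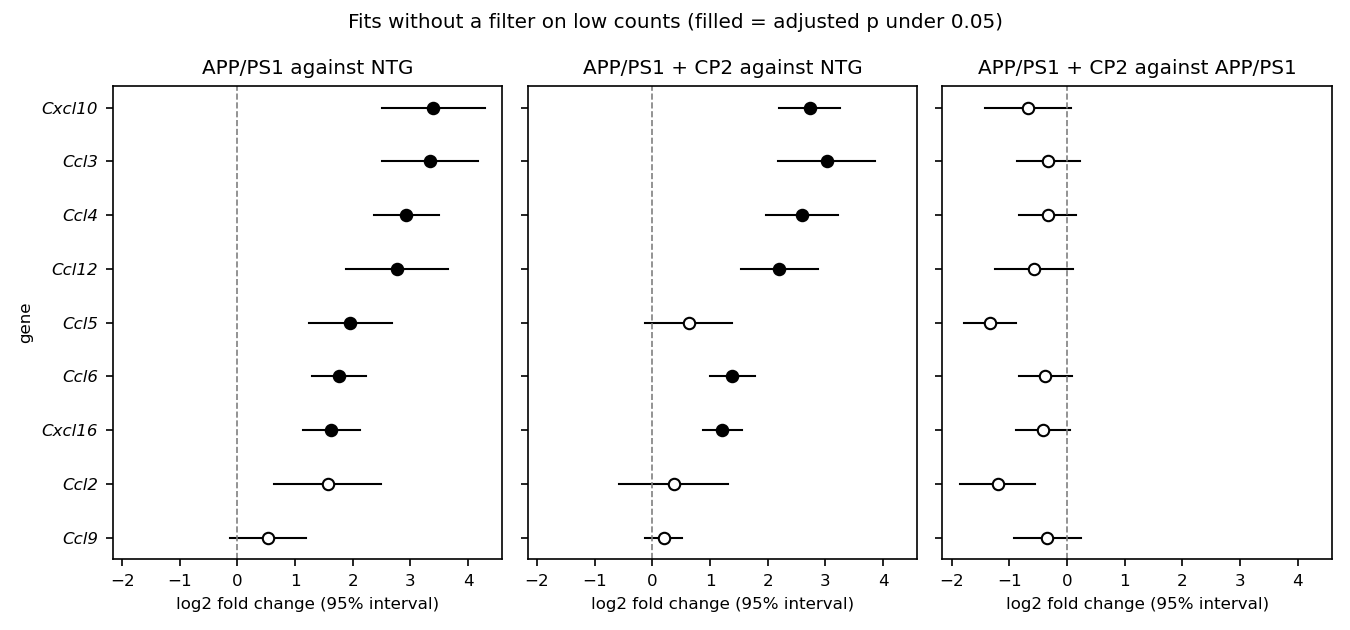
Log2 fold changes (x axis) with 95% intervals for the 9 chemokines (y axis) in the 3 comparisons, from edgeR fits without a filter; filled symbols have an adjusted p under 0.05. In both comparisons with NTG mice all 9 points lie right of 0 and 7 or 6 are filled, whereas in APP/PS1 + CP2 against APP/PS1 mice all 9 lie left of 0, none is filled and the intervals of Ccl5 and Ccl2 exclude 0.

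The next question was whether CP2 changed chemokine transcripts in APP/PS1 mice. With the filter, 0 of 6 chemokines were called lower in edgeR, where 0.00609% of the 16407 genes tested (1 gene) were, and 0 of 6 had an unadjusted p under 0.05, where 3.66% of genes were lower at that level. DESeq2 and limma-voom called 0 of 6 as well. Without a filter, edgeR called 0 of 9, where 0.00296% of 33733 genes were called lower, and 2 of 9 had an unadjusted p under 0.05 with lower values, where 3% of genes did. DESeq2 called 1 of 9 without a filter, namely Ccl5. All 9 log2 fold changes were negative, with a median of -0.42 against -0.01 over all genes. The 9 values come from the same mice and are not independent. For 2 of 9, the treated mice were all below the vehicle-treated mice, where 0.471% of genes were.

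The difference was largest for Ccl5. CP2-treated mice had 40, 33, 26, 32 and 22 counts, 0.272 to 0.461 CPM, all below the 0.720 CPM of the lowest vehicle-treated APP/PS1 mouse. Their mean was 0.349 ± 0.0735 CPM (SD, n = 5) against 0.877 ± 0.165 CPM without CP2, a log2 fold change of -1.33 (SE 0.21, 95% interval -1.78 to -0.88). In edgeR without a filter the unadjusted p was 2.2e-05 and the adjusted p 0.253. The adjusted p of DESeq2 was 4.5e-05, and over the edgeR fits with a mouse left out it ranged from 0.0948 (without mouse 16) to 0.895. The log2 fold change itself stayed between -1.45 and -1.25.

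Ccl2 in CP2-treated mice lay between 0.113 and 0.247 CPM, below the lowest vehicle-treated mouse (mouse 16, 0.252 CPM) and within the NTG range. The gap to mouse 16 was thus no wider than 1 count. The log2 fold change was -1.21 (SE 0.30, 95% interval -1.86 to -0.56), with an adjusted p of 0.778 in edgeR without a filter and 0.132 in DESeq2. Exact two-sided permutation tests gave 0.00794, the smallest p that 252 groupings allow, for Ccl5 and Ccl2, and 0.183 to 0.579 for the other 7 chemokines. For groups that do not overlap this smallest p is fixed, so it restates the lack of overlap and adds no further evidence.

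The neighbouring genes Ccl3 and Ccl4 did not pass the test. Ccl3 measured 4.19, 4.82, 3.45, 2.05 and 1.99 CPM in CP2-treated mice, overlapping the vehicle-treated range, with a log2 fold change of -0.33 (SE 0.27, adjusted p = 0.815). Ccl4 measured 1.57, 2.35, 1.31, 0.980 and 1.36 CPM, with a log2 fold change of -0.34 (SE 0.23, adjusted p = 0.781). Mice 24 and 25 were lowest for Ccl3, and mouse 24 for Ccl4. The 95% intervals without a filter, -0.88 to 0.23 for Ccl3 and -0.83 to 0.15 for Ccl4, include 0 and do not show that the groups were alike.

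Cxcl10 measured 4.53, 3.79, 2.03, 2.46 and 2.57 CPM in CP2-treated mice, with a log2 fold change of -0.67 (SE 0.37, 95% interval -1.43 to 0.07, adjusted p = 0.749). The difference rested partly on vehicle-treated mouse 18, without which it was -0.22. Ccl12 (-0.58, SE 0.31), Cxcl16 (-0.42, SE 0.23), Ccl6 (-0.38, SE 0.22) and Ccl9 (-0.34, SE 0.28) had negative log2 fold changes with adjusted p values between 0.749 and 0.810. Ccl6 measured 5.70, 5.08, 8.04, 4.97 and 4.08 CPM and Cxcl16 6.47, 7.57, 4.63, 4.81 and 4.797 CPM in CP2-treated mice. Both overlapped the vehicle-treated mice. Ccl9 measured 1.35, 1.65, 1.44, 1.35 and 1.37 CPM, within the range of vehicle-treated mice.

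Single mice moved these log2 fold changes. Without mouse 20 that of Ccl9 was 0.01 and that of Ccl6 -0.16, and without mouse 19 those of Cxcl16 and Ccl4 were -0.18 and -0.21. Without CP2-treated mouse 25 that of Ccl3 was -0.19. Without mouse 16 all 9 were further from 0, from -0.36 (Ccl4) to -1.39 (Ccl5). Mouse 16 was the lowest vehicle-treated mouse for all of them but Ccl4, so leaving it out widens those differences by construction. Ccl12 (-0.78), Cxcl10 (-0.85) and Cxcl16 (-0.55) then had unadjusted p values in edgeR of 0.00535, 0.0276 and 0.0235. The share of all genes with such p values without this mouse was not counted. No chemokine passed the adjusted threshold in edgeR without mouse 16, the adjusted p ranging from 0.0948 for Ccl5 to 0.640 for Ccl4.

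CP2-treated APP/PS1 mice were also set against NTG mice, to ask which chemokines remained above the non-transgenic level. This comparison and the previous one share the treated mice, and this one and the first share the NTG mice. The first and the previous one share the vehicle-treated APP/PS1 mice. Values of the comparisons are therefore given side by side without a test between them. With the filter, 4 of the 5 chemokines tested were called higher (Ccl3, Ccl6, Cxcl10 and Cxcl16, Ccl4 not reaching the filter here), where 4.56% of 16416 genes were. Ccl3 and Cxcl10 passed the filter only through the treated group, so this count too is partly set by the filter. Without a filter, 6 of 9 were called, where 2.12% of 33362 genes were, and 6 of 9 did not overlap, where 3.88% of genes did so with higher values. The called chemokines were Ccl3 (log2 fold change 3.03), Cxcl10 (2.74), Ccl4 (2.59, no filter), Ccl12 (2.20, no filter), Ccl6 (1.39) and Cxcl16 (1.22), with adjusted p values from 0.000157 to 0.00185. In each of these, every CP2-treated mouse exceeded every NTG mouse.

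Ccl5, Ccl2 and Ccl9 were not called between treated transgenic and NTG mice. Ccl5 had a log2 fold change of 0.63 (SE 0.35, 95% interval -0.12 to 1.38, adjusted p = 0.487), and NTG mouse 7, with 0.419 CPM, lay within the treated range. Ccl2 had a log2 fold change of 0.37 (SE 0.44, 95% interval -0.58 to 1.32, adjusted p = 0.755). Ccl9 had 0.20 (SE 0.13, adjusted p = 0.403). For Ccl5 and Ccl2 the log2 fold changes against NTG mice were 1.96 and 1.57 in vehicle-treated mice and 0.63 and 0.37 in CP2-treated mice, and for Ccl3 and Ccl4 they were 3.35 and 2.94 against 3.03 and 2.59.

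**Figure D3:**
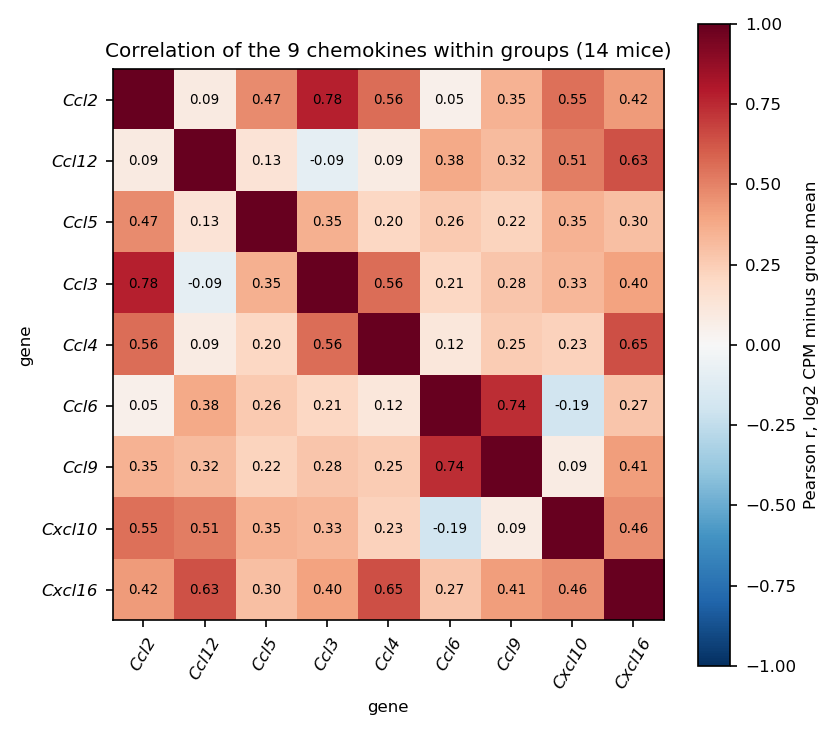
Pearson correlation of log2 CPM between each pair of the 9 chemokines (both axes) over 14 mice after the mean of each group was subtracted; the colour scale runs from -1 to 1. The highest values are those of Ccl2 with Ccl3 (0.78) and Ccl6 with Ccl9 (0.74).

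Mice of the same group that were high in some chemokines tended to be high in others. After subtraction of group means, 34 of 36 pairs had a positive correlation of log2 CPM over 14 mice (median r 0.33, range -0.19 to 0.78). The points share libraries and depth, and the values are descriptive. The share of positive pairs among all genes was not counted. Mouse 16 was the lowest APP/PS1 mouse for 8 of the 9 chemokines, and no correlations without it are given here. Ccl2 and Ccl3 (r 0.78, rho 0.68), the neighbours Ccl6 and Ccl9 (r 0.74, rho 0.68), Ccl4 and Cxcl16 (r 0.65, rho 0.59) and Ccl12 and Cxcl16 (r 0.63, rho 0.56) were the highest. Without the 2 mice farthest from the median of the first-named chemokine of a pair, these were 0.64, 0.65, 0.63 and 0.23, and 31 of 36 pairs were positive. Ccl6 and Cxcl10 had the lowest value (r -0.19, rho -0.13). Among APP/PS1 mice the highest value fell in mouse 19 for Ccl3, Ccl4, Ccl12 and Cxcl16, in mouse 20 for Ccl6 and Ccl9, in mouse 18 for Ccl2 and Cxcl10 and in mouse 17 for Ccl5. Among CP2-treated mice, mouse 21 or 22 was highest for 7 of the 9.

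The genes most like each chemokine within groups were sought among 16520 genes for the 6 chemokines that passed the filter, by the same group-centred Pearson r over 14 mice. They were picked as the highest of so many genes that high r values are in part set by the choice. How high r would be by chance was not tested. For Cxcl16 they were Pbxip1 (r 0.97), Cyba (0.96) and the overlapping Zmynd15 (0.95), and for Cxcl10 Palm3 (0.92), Slc16a1 (0.92) and Sgsh (0.91). For Ccl3 they were A630001G21Rik, Cd14 and Rab39, each at 0.89, and for Ccl4 Plekho1 (0.91), Gsap (0.89) and Ctbs (0.88). Gm13070 (0.90), Srp54b (0.88) and Gm10653 (0.87) were nearest to Ccl6, and Cfl2 (0.92), Cbx5 (0.87) and Pter (0.87) to Ccl9. The last list rested on few mice, since without the 2 mice farthest from the median the r with Ccl9 was 0.60 for Cfl2, 0.14 for Cbx5 and -0.22 for Pter.

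**Figure D4:**
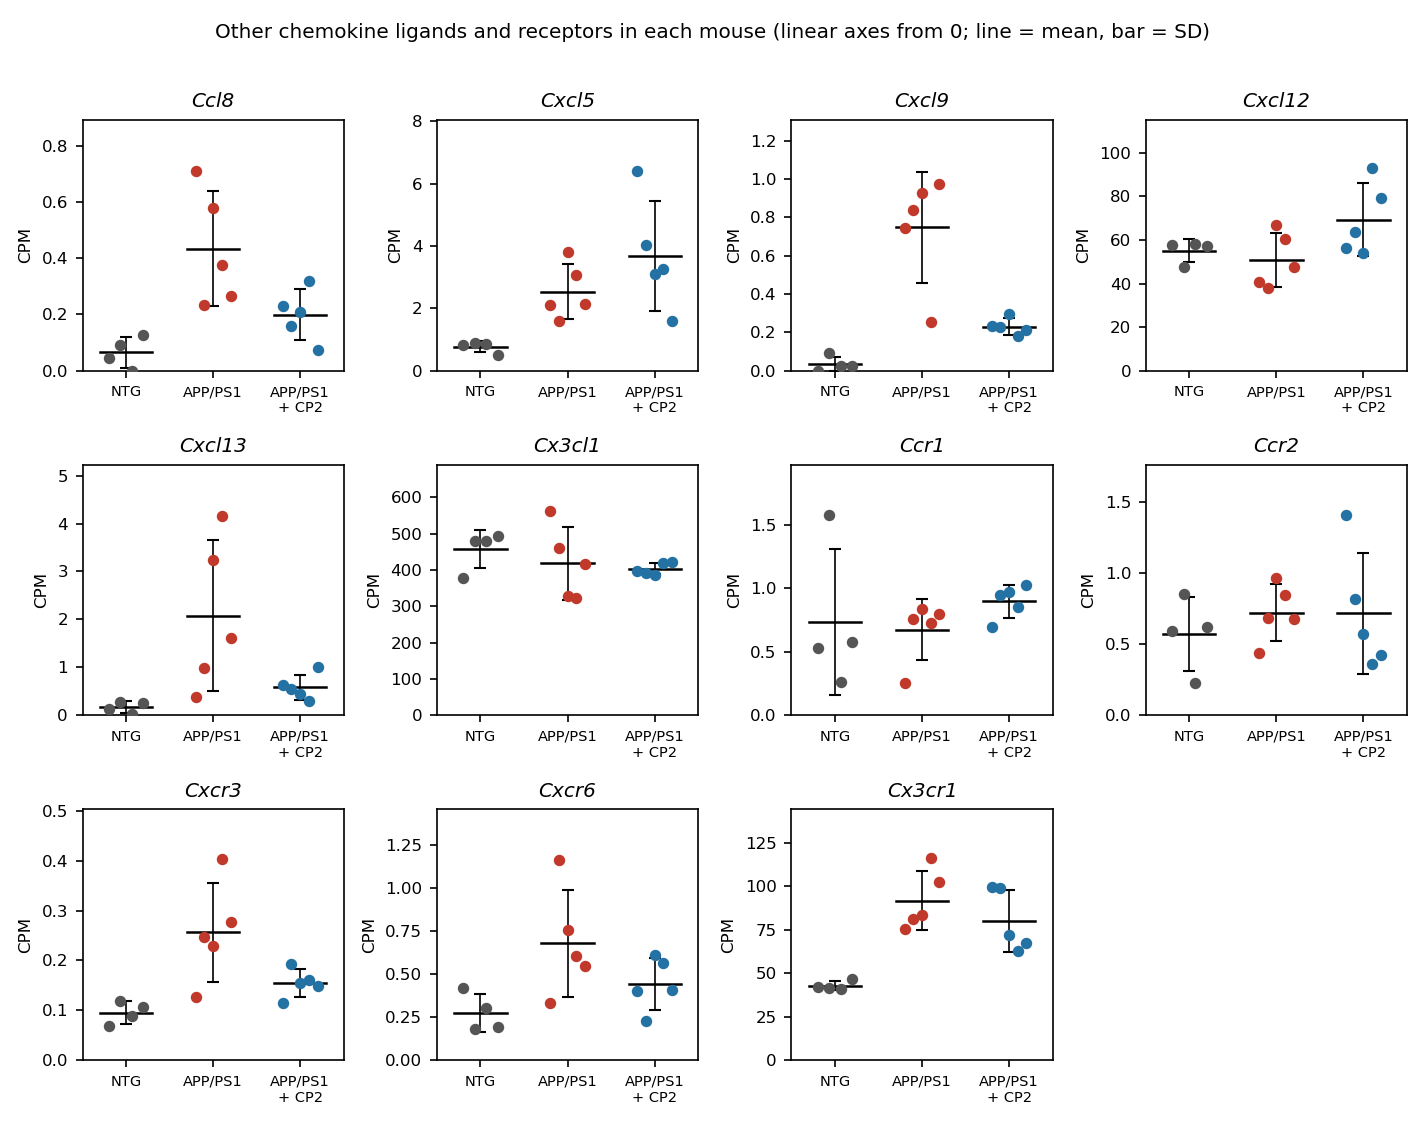
CPM (linear axes starting at 0) of 11 other chemokine ligands and receptors in each mouse of the 3 groups, with the mean as a line and the SD as a bar. Cxcl5, Cxcl9, Cxcl13, Ccl8, Cx3cr1 and, narrowly, Cxcr3 are higher in all APP/PS1 than in all NTG mice, while Ccr1, Ccr2, Cxcr6, Cxcl12 and Cx3cl1 overlap.

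Other chemokine ligands and the receptors were described from lists of the family. Of the other CC ligands, 15 of 16 were in the table. In APP/PS1 against NTG mice, 0 of the 5 that passed the filter were called, where 4.34% of all genes were called higher. Without a filter, 1 of the 14 with a count was called higher, where 2.31% of all genes were. That ligand, Ccl8, encoded beside Ccl12, was named after its values were seen, as was Cxcl9 below. It had 0 to 12 counts in NTG and 21 to 63 counts in APP/PS1 mice (log2 fold change 2.68, adjusted p = 0.039). The median log2 fold change over the 14 was 0.66.

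Of 15 other CXC, CX3C and XC ligands, 1 of 4 was called higher with the filter and 3 of 13 without, with a median of 1.21 without a filter. The shares over all genes were 4.34% with the filter and 2.31% without. Cxcl5, a neutrophil attractant, rose from 0.764 ± 0.172 CPM to 2.53 ± 0.884 CPM (log2 fold change 1.74, SE 0.28, adjusted p = 0.00488). Cxcl9, which shares the receptor Cxcr3 with Cxcl10, had 0 to 6 counts in NTG mice and 20 to 101 counts in APP/PS1 mice (log2 fold change 4.52, adjusted p = 0.00157 without a filter). Cxcl13, a B cell attractant, rose from 0.171 ± 0.118 CPM to 2.07 ± 1.57 CPM (log2 fold change 3.58, adjusted p = 0.0161 without a filter). The abundant ligands made by resting brain did not pass the test. Cx3cl1, the neuronal ligand of microglial Cx3cr1, measured 457 ± 53.4 CPM in NTG and 418 ± 99.9 CPM in APP/PS1 mice (adjusted p = 0.737), and Cxcl12, which guides progenitor and immune cells, 55.1 ± 5.15 and 50.8 ± 12.6 CPM (adjusted p = 0.768).

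Of 18 signalling receptors, 1 of the 4 that passed the filter and 1 of 18 without a filter was called higher in APP/PS1 mice, and 0 of 5 atypical receptors was. The shares over all genes were 4.34% with the filter and 2.31% without. The called receptor was Cx3cr1, with 42.6 ± 2.57 CPM in NTG and 91.6 ± 17.1 CPM in APP/PS1 mice (log2 fold change 1.10, SE 0.12, adjusted p = 0.00071). Ccr2 had 18 to 58 counts in NTG and 38 to 105 counts in APP/PS1 mice (log2 fold change 0.33, adjusted p = 0.693), and Ccr1, which binds Ccl6 and Ccl9, 21 to 106 and 22 to 91 counts (-0.12, adjusted p = 0.936). Cxcr3 (1.40, adjusted p = 0.0893) and Cxcr6 (1.30, adjusted p = 0.112) had positive log2 fold changes that missed the threshold without a filter, at 6 to 10 and 12 to 37 counts in NTG mice.

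After CP2, 0 genes of these lists were called in edgeR against vehicle-treated APP/PS1 mice, with or without the filter. Without a filter, the unadjusted p was under 0.05 for 1 lower gene among the other CC ligands, 4 lower and 1 higher among the other CXC, CX3C and XC ligands, 1 lower among the receptors and 1 lower among the atypical receptors. Over all genes, 3% were lower at that level. Cxcl9 had 17 to 23 counts in CP2-treated mice (log2 fold change -1.72, SE 0.33, adjusted p = 0.625) and Cxcl13 31 to 81 counts (-1.84, SE 0.52, adjusted p = 0.778). Cxcl5 was at 3.68 ± 1.76 CPM (log2 fold change 0.53, adjusted p = 0.763), which is opposite in sign to the 9 chemokines. Cxcl12 measured 69.3 ± 16.8 CPM (0.44, adjusted p = 0.744) and Cx3cr1 80.0 ± 17.7 CPM (-0.20, adjusted p = 0.807). Against NTG mice, Cxcl5 (2.28), Cx3cr1 (0.91), Ccl17 (0.996) and Ccrl2 (0.94) were called in CP2-treated mice with the filter, the last pair named after their values were seen.

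Markers of the cells that could hold these transcripts were summed per mouse. Over all genes, 4.34% were called higher in APP/PS1 than NTG mice with the filter and 2.31% without. Of 10 microglial markers, 9 were called higher in APP/PS1 than NTG mice (median log2 fold change with the filter 1.076), with summed CPM of 370 to 385 in NTG, 694 to 914 in APP/PS1 and 567 to 851 in CP2-treated mice. Of 10 markers of plaque-associated microglia 8 were called higher (median 2.37), with sums of 148 to 194, 302 to 475 and 269 to 405 CPM. Of the 10 interferon-response genes that passed the filter 8 were called higher (median 1.51), and the sums were 61.9 to 77.3, 79.6 to 201 and 101 to 133 CPM. Mouse 16 had the lowest APP/PS1 sum in each of the 3 lists. In the last list mouse 18, highest for Cxcl10, had the highest sum. Between the APP/PS1 groups, 0 genes of these 3 lists were called in edgeR, and the median log2 fold changes were -0.16, -0.17 and -0.50. Without a filter, the unadjusted p was under 0.05 with lower values for 0 of 10, 1 of 10 and 6 of 12 genes, where 3% of all genes were lower at that level.

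For T and NK cells, 0 of 10 markers passed the filter and 3 were called without it (Cd3g, Cd8a and Nkg7, median over the list 1.94). Their sums were 0.776 to 1.46 CPM in NTG, 2.253 to 22.7 in APP/PS1 and 1.30 to 2.69 in CP2-treated mice. The highest was mouse 16, through Cd4 alone. Without Cd4 the sums were 0.463 to 0.838, 1.23 to 2.99 and 0.841 to 1.44 CPM. These sums were higher in the groups with more chemokine transcript, and their part in the results was not tested. Between the APP/PS1 groups, 0 of the 10 markers were called in edgeR without a filter. After CP2, 9 of them were lower and 1 higher, with a median log2 fold change of -0.83. The unadjusted p was under 0.05 for 3 of the lower ones, where 3% of all genes were lower at that level.

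In the remaining lists fewer genes were called. In APP/PS1 against NTG mice, 0 of 4 tested markers of border-associated macrophages, 0 of 1 of monocytes and neutrophils (Plac8 alone without a filter), 1 of 7 astrocyte markers up (Gfap) and 1 down (Slc1a2), 1 of 7 of brain endothelium (Pecam1), 0 of 4 of choroid plexus, 0 of 9 of striatum, 0 of 9 of cortical and hippocampal neurons and 2 of 5 of blood (Hba-a1 and Hba-a2) were called. Without a filter, 6 of the 9 monocyte and neutrophil markers were lower and 3 higher, with a median log2 fold change of -0.54. The unadjusted p was under 0.05 for 2 of the lower and 2 of the higher ones. Summed CPM in NTG, APP/PS1 and CP2-treated mice were 13.6 to 18.4, 17.98 to 23.6 and 15.8 to 21.3 for border-associated macrophages and 2.89 to 9.27, 4.07 to 7.70 and 3.34 to 4.84 for monocytes and neutrophils. For blood they were 82.5 to 151, 113 to 472 and 136 to 443. No marker in the 12 lists of cell types and responses was at 0 in all 14 mice, and the markers of cortical and hippocampal neurons summed to 5285 to 6874 CPM in every mouse. Choroid plexus markers varied from 21.2 to 1348 CPM between mice of all groups.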

How the data were processed

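RNA of brain tissue from 14 mice was sequenced by the authors with TruSeq RNA v2 libraries and paired 101-base reads. The authors aligned the reads with TopHat2 to mm10 within MAP-RSeq and assigned them to Ensembl genes with FeatureCounts, a read being counted on each gene it overlapped. They deposited raw counts per gene without normalization, together with RPKM values. The strand setting is not given in the sources used here, and the kit does not mark strand. RPKM was used only to compare levels between genes.

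Analyses used R 4.3.3 (DESeq2 1.42.0, edgeR 4.0.16 and limma 3.58.1) and Python 3.11.15 (scipy 1.17.1). Each comparison was fitted in edgeR on its pair of groups over the whole table (TMM factors, glmQLFit, glmQLFTest, two-sided, Benjamini-Hochberg over all genes tested), in the main fit over genes with DESeq2's robust CPM above 1 in every mouse of at least 1 group, and again over every gene with a count. The paper's own test was DESeq2, and its criterion was a P value under 0.05, where an adjusted p is used here. Fold changes and standard errors of a gene come from the filtered fit where it passed and otherwise from the fit without a filter; 95% intervals and standard errors of all other fits are those implied by the test statistic. CPM used TMM factors over 14 mice (0.953 to 1.03), and log2 CPM a prior count of 2.

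Alternatives were DESeq2, RLE and upper-quartile factors, limma-voom with quality weights, a joint fit of the 3 groups, at least 10 counts in each mouse as the filter, no filter, and leaving out each mouse. Exact permutation of mean log2 CPM was added after seeing the data. The procedure was tested on simulated counts. The 9 genes, the 16 lists and the tests were chosen with earlier results of these data known. Genes named are the 9 chemokines, their receptors, Cx3cl1, Cx3cr1, Cxcl12 and Cxcl13, family genes called with the filter in APP/PS1 against NTG mice, and the 3 genes most like each chemokine; 1 gene that this rule names is not reported here. Replicates are separate mice, and no pair of libraries in a group matched within sampling noise (26 pairs, lowest chi-square per degree of freedom 10.6). Gene positions were compared with GENCODE vM21 and were the same for all 9 genes. Promoters come from RefSeq (GRCm38.p6).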

Additional observations from a re-analysis of the deposited data

Results flagged for a closer look

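Ccl5 in NTG mouse 7 stood apart from its group. It had 37 counts (0.419 CPM) against 0.170 CPM in the nearest NTG mouse, a gap of 0.885 of the group's range, above Dixon's 95% critical value for 4 mice. Ccl9 in APP/PS1 + CP2 mouse 22 had 146 counts (1.65 CPM) against 1.44 CPM in the nearest treated mouse, a gap of 0.715 of the range, above the critical value for 5 mice. In all, 27 sets of values (9 genes in 3 groups) were examined, and chance flags about 1 in 20.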

How the results depend on the processing

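The number of chemokines called in APP/PS1 against NTG mice was 5 with the filter and 5 to 7 over 16 alternatives to that fit (other filters or none among them), and 7 without a filter and 7 to 8 over 12. In CP2-treated APP/PS1 against NTG mice it was 4 with the filter (4 to 6) and 6 without (6 in each of 12 alternatives). For CP2 against vehicle in APP/PS1 mice it was 0 with the filter and in each of 17 alternatives to that fit, edgeR without a filter among them. Starting from the fit without a filter, it was 0 in edgeR under each alternative run and 1 (Ccl5) in DESeq2. The cause of that difference was not tested. The log2 fold change of Ccl9 in this comparison ranged from -0.50 to 0.01 (0.0074 without APP/PS1 mouse 20) when each mouse was left out, the only change of sign among the 27 fold changes, and it was called in none of these fits. Exact permutation of mean log2 CPM gave p = 0.0317 for Ccl2 in the first comparison, without adjustment over genes. After CP2 it gave 0.00794 for Ccl2 and Ccl5, again unadjusted and fixed by their lack of overlap. Groups did not share mice or replicate numbers, so no paired fit applied. Counting limits Ccl2, with 4 to 66 counts per mouse, and, in NTG mice, Ccl3 (8 to 52), Ccl5 (11 to 37), Ccl12 (13 to 30) and Ccl4 (14 to 28).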
